A study of Mus musculus with 20 samples.

Results

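H3K9me3 regions were compared between 2 cultures of mouse embryonic fibroblasts (MEFs), a wild-type (WT) culture and a culture from Pml-null mice (KO), which lack the protein that builds PML nuclear bodies. All regions called in the 2 H3K9me3 lists on chromosomes 1 to 19 and X were used. They numbered 20730 in WT and 10748 in KO, 31478 of the 120433 regions in all ChIP lists of the series. Both cultures had a C57BL/6 background, were between passage 10 and 15, and were proliferating and untreated until they reached confluency. For this antibody the cells were not transfected. Each genotype had 1 library from 1 anti-H3K9me3 antibody (Diagenode) and 1 lot. The labels do not give the sex of the embryos or how many were pooled. With 1 library per genotype no difference below has a replicate check, and none was tested.

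Trimethylation of lysine 9 on histone H3 marks constitutive heterochromatin. SUV39H1, SUV39H2 and SETDB1 write the mark, HP1 proteins (the Cbx1, Cbx3 and Cbx5 genes) bind it, and KDM4 enzymes remove it. On chromosome arms it is known from repeats, from clusters of KRAB zinc finger genes, from imprinted control regions, and from tandem families that are silent in fibroblasts, such as olfactory receptors. H3K27me3, written by Polycomb complexes, marks developmental genes and the inactive X chromosome.

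Promoters of 4 genes give examples of sequence at called starts, with the 250 bases before the start of transcription taken from RefSeq (GRCm38.p6, the assembly of mm10) and CG dinucleotides in capitals. They were chosen after the values were seen, 1 start called in WT alone, 1 called in both and 2 called in KO alone. The strand is given in brackets and each sequence reads 5′ to 3′. Pramel38 belongs to a family expressed in germ cells and early embryos, Zfp942 encodes a zinc finger protein, Rps6 encodes a ribosomal protein, and Igfbp7 encodes a secreted protein of fibroblasts.
Pramel38, chr5:94160152-94160401 (+), called in WT alone: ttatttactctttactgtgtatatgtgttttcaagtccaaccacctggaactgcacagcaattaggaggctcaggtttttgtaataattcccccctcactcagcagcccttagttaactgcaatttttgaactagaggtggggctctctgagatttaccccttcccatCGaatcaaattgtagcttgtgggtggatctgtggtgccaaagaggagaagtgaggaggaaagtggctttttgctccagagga
Zfp942, chr17:21962465-21962714 (-), called in both: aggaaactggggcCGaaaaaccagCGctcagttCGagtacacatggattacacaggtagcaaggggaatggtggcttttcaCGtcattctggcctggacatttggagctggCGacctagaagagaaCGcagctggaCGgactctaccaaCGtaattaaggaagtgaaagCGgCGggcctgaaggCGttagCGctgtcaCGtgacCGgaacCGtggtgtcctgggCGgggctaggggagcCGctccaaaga
Rps6, chr4:86857368-86857617 (-), called in KO alone: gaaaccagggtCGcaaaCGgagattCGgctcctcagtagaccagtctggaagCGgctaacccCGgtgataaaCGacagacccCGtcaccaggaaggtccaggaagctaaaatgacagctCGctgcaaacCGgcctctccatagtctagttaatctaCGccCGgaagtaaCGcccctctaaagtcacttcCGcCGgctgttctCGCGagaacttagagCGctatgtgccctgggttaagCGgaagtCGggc
Igfbp7, chr5:77408046-77408295 (-), called in KO alone: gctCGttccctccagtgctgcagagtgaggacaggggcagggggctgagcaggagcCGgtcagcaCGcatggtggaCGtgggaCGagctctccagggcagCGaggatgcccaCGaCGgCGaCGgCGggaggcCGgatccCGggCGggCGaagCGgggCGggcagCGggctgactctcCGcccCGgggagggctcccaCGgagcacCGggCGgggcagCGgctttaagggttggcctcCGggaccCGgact
The Pramel38 promoter held 1 CG, Zfp942 held 17, Rps6 19 and Igfbp7 26.

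Promoters were then counted over all genes with a sequence (17267 of 21627 protein-coding genes, 79.8%). Each upstream stretch was searched for CG, which reads the same on both strands. At least 1 CG was present in 92.9% of all promoters. The median was 1 CG where the start lay in a WT call alone (1403 genes), 3 where it lay in calls of both genotypes (1786), 8 where it lay in a KO call alone (2245) and 13 where it lay in neither (11833). At least 10 CG were held by 9.48%, 22.8%, 44.1% and 61.5% of these groups in the same order. The printed Zfp942, Rps6 and Igfbp7 promoters lay above the upper quartile of their groups (8 for starts in both, 16 for KO alone), so they are CG-rich examples. Starts called in WT alone were therefore mostly CG-poor, and those called in KO alone lay between the shared starts and the uncalled ones. Since under 80% of all genes had an entry, the value over all genes does not stand for the complete set.

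In WT the calls covered 840.6 Mb, 32.7% of the 2573 Mb analysed. In KO they covered 735.1 Mb, 28.6%, so the KO to WT ratio of covered length was 0.875. The 2 lists shared 456.3 Mb, which was 54.3% of the WT length and 62.1% of the KO length. A region had a median length of 13 kb in WT and 24 kb in KO. The signal the authors gave each region had a median of 3.83 in WT and 8.48 in KO. In WT, 8655 regions (41.8%) had a signal below 3 and 117 of these had a signal of 0, whereas 24 KO regions (0.223%) fell below 3.

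With regions of signal 3 or more, WT kept 12075 regions and 306.5 Mb and KO kept 10724 regions and 733.2 Mb, a ratio of 2.39. The KO list thus covered less length than WT with all calls and more at this minimum. The ratio was already 1.17 at a minimum of 1 and reached 3.92 at a minimum of 6. Shared length at a minimum of 3 was 62.3% of WT and 26.0% of KO. The regions nearest to the minimum had signals of 2.99 and 3.00 in WT and of 2.98 and 3.00 in KO. Within 0.1 of it lay 163 WT regions below and 287 at or above, against 4 and 6 in KO.

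**Figure D1:**
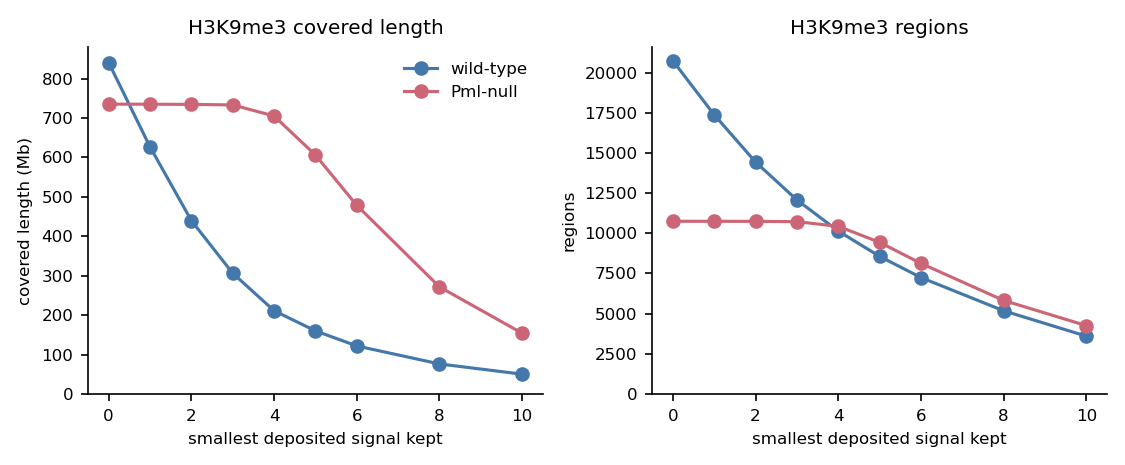
H3K9me3 covered length in Mb (left) and number of regions (right) against the smallest deposited signal kept, for the wild-type and Pml-null libraries, 1 library each and no error bars. The wild-type length falls from 840.6 Mb to 306.5 Mb at a minimum of 3, while the Pml-null length stays near 733.2 Mb.

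No source used here says whether a signal of 3 means the same in both libraries. The signal times the region length in kb was a whole number within a tolerance of 0.01 (wider, in proportion, for products over 1000) for 100% of regions on chromosomes 1 to 9 and X in both genotypes, but for 6.15% of WT and 3.65% of KO regions on chromosomes 10 to 19. On chromosomes 1 to 9 and X these products summed to 1992610 over 630.9 Mb in WT and to 4202530 over 501.0 Mb in KO, a mean signal of 3.16 and 8.39 per kb. A scaling to sequencing depth is not recorded, the depth of both libraries is unknown, and its part in the signal difference was not tested. Comparing the same amount of each list does not need a common scale between the lists. It does need 1 scale over all chromosomes within each list, which is not recorded. Taking regions from the highest signal down to 300 Mb, the WT list reached down to a signal of 3.03 and the KO list to 7.64. These strongest portions shared 38.4% of the WT and 38.2% of the KO length. Chromosome 5 held 9.79% of the WT portion and 28.1% of the KO portion.

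On the 456.3 Mb called in both, the median signal over 1 kb bins was 2.43 in WT and 7.22 in KO, and KO was higher in 91.8% of bins. The Spearman correlation of the 2 signals over these bins was 0.36, a description of bins that share their region's value. On chromosomes 10 to 19 alone the medians were 2.05 and 7.28.

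Short WT regions were the ones least often called in KO. Of all WT regions, 48.3% (95% Wilson interval 47.6 to 48.9) touched a KO region by at least 1 bp. The share was 28.5% for WT regions under 10 kb, 52.1% from 10 to under 50 kb, 81.6% from 50 to under 100 kb, 91.6% from 100 to under 500 kb and 98.3% at 500 kb and over. These intervals, here and below, cover counting error only and treat regions as independent.

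In KO, 85.2% of regions (84.5 to 85.9) touched a WT region. With all calls the share was 88.6% under 10 kb, 83.6% from 10 to under 50 kb, 80.8% from 50 to under 100 kb, 87.9% from 100 to under 500 kb and 99% at 500 kb and over. WT had 7906 regions under 10 kb and KO had 2328, with median signals of 8.20 and 19. A longer region has more chance to touch another one, so the rise with length is not a measure of stability.

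The KO shares were much lower when both lists were held to a signal of 3 or more. Then 47.1% of KO regions (46.2 to 48.1) touched a WT region, 60.8% under 10 kb, 43.0% from 10 to under 50 kb, 38.1% from 50 to under 100 kb, 44.5% from 100 to under 500 kb and 80.7% at 500 kb and over. The WT shares at this minimum were 44.7% (43.8 to 45.5) over all regions and 29.1%, 63.2%, 95.5%, 97.4% and 99% in the same classes. The shortest and the longest KO regions were thus touched most often, and the WT share still climbed with length.

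**Figure D2:**
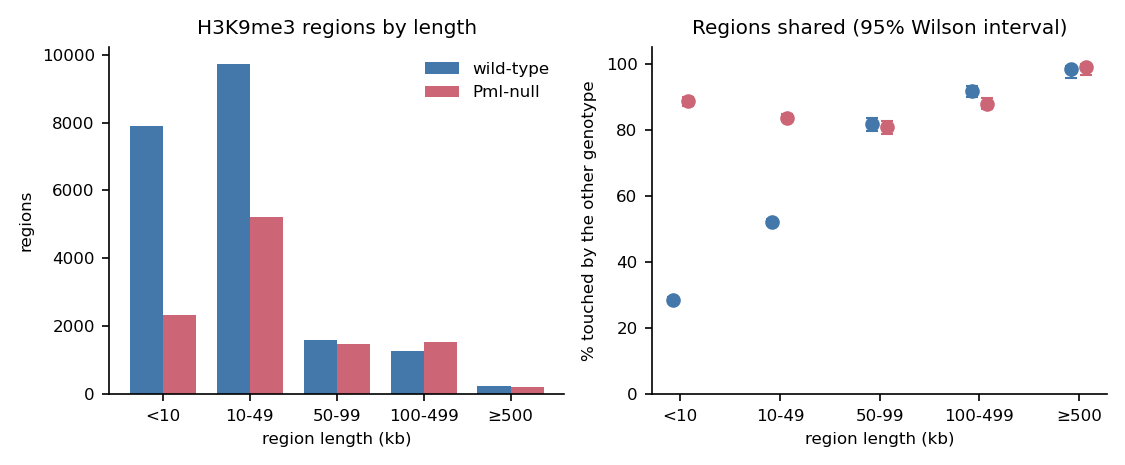
Number of H3K9me3 regions (left) and percentage of regions touched by a region of the other genotype (right) by region length in kb, for the wild-type and Pml-null libraries. Bars on the right are 95% Wilson intervals, and the wild-type share climbs from 28.5% to 98.3% while the Pml-null share lies between 80.8% and 99%.

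Regions of signal 3 or more that met no call of the other genotype numbered 6674 in WT (55.3%), with a median length of 6 kb and 53.4 Mb in all. In KO they numbered 1582 (14.8%), with a median length of 27 kb and 74.9 Mb in all. WT-only sites were thus shorter than the touched WT regions (median 13 kb), and KO-only sites were near the length of touched KO regions (23 kb). The low number in KO counts weak WT calls as a match. With both lists held to a signal of 3 or more, 44.7% of WT and 47.1% of KO regions were touched. KO regions also joined WT regions. In KO, 1211 regions each spanned 2 or more WT regions, up to 21, while 692 WT regions spanned 2 or more KO regions, up to 34.

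The longest region of signal 3 or more called in WT alone was 789 kb in Nrxn3, a synaptic adhesion gene (chr12:88552001-89341000, signal 4.36), and it lay wholly in WT PML calls. Total H3 was called over 46.6% of it in WT and 0% in KO, and H3.3-HA over 0% and 100%. The next longest in WT alone was 114 kb across the Ugt1a cluster of glucuronosyltransferase genes (chr1:88153001-88267000, signal 9.56). There H3K27me3 was also called over 100% in WT and 0% in KO. The longest in KO alone was 703 kb across Dscaml1, Scn2b and Il10ra (chr9:45077001-45780000, signal 7.70). WT PML calls covered 92.5% of it, so the 1 longest region of each kind lay wholly or mostly in PML calls. The Ugt1a region and the third longest in WT alone (110 kb) had 0% in WT PML calls. In KO alone the second longest (596 kb) had 88.9% and the third (480 kb) 0%. Total H3 was called over 100% of the 703 kb region in both genotypes and H3K27me3 over 97.7% in both. The strongest region shared by both was 2 kb on chr6:29747001-29749000, with a signal of 166.5 in WT and 114.0 in KO.

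Chromosomes differed far more between the genotypes than the totals did. The KO to WT ratio of covered length ran from 0.301 on chromosome 1 to 1.88 on chromosome 5, with 8 of 20 chromosomes above 1. At a signal of 3 or more the ratio ran from 1.07 on chromosome 12 to 5.85 on chromosome 11, above 1 on all 20. Across the 20 chromosomes the ratio over all calls followed gene density with a Spearman value of 0.52, a description over chromosomes of the same 2 libraries.

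Chromosome 5 stood apart in KO. Calls covered 41.2% of it in WT and 77.4% in KO, where the second highest autosome, chromosome 4, had 40.5%. It held 15.7% of the KO length and 21.4% of the length called in KO alone, with 5.78% of the space analysed. In KO, 59 of the 202 regions of at least 500 kb lay on it, with a median signal of 11.1 against 7.37 for those elsewhere. In WT, 18 of 233 such regions did. With the chromosome cut into 10 equal parts, KO coverage was lowest in the part next to the centromere (56.2%) and highest in the last (94.1%), where WT had 38.3% and 47.5%. Total H3 calls covered 34.4% of chromosome 5 in WT and 53.0% in KO, against 16.9% and 20.2% of all space analysed. The part of H3 calling in this difference was not tested. Without chromosome 5 the ratio was 0.796 with all calls and 2.23 at a signal of 3 or more.

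Chromosome 1 went the other way. Calls covered 37.9% in WT (72.9 Mb) and 11.4% in KO (22 Mb), and 25.5% of the WT length there was also called in KO, the lowest share of any chromosome. At a signal of 3 or more the coverage was 9.72% in WT and 11.3% in KO, so most of the WT surplus lay in regions of low signal. Total H3 calls covered 10.7% and 12.7% of this chromosome.

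The X chromosome was covered at 48.4% in WT and 46.7% in KO with all calls, and at 14.9% and 46.7% at a signal of 3 or more. H3K27me3 calls covered 77.4% of X in WT and 98.9% in KO. The numbered RNA tables gave Xist, the RNA that coats the inactive X, at 19.5 FPKM for WT against 0.052 for KO, and Ddx3y, a gene on Y, at 0.0384 and 7.67. The unnumbered tables gave Xist at 5.89 and 8.25 and Ddx3y at 21.7 and 11.4. The 2 pairs of tables do not show the same order, and the part of sex in the values on X was not tested.

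**Figure D3:**
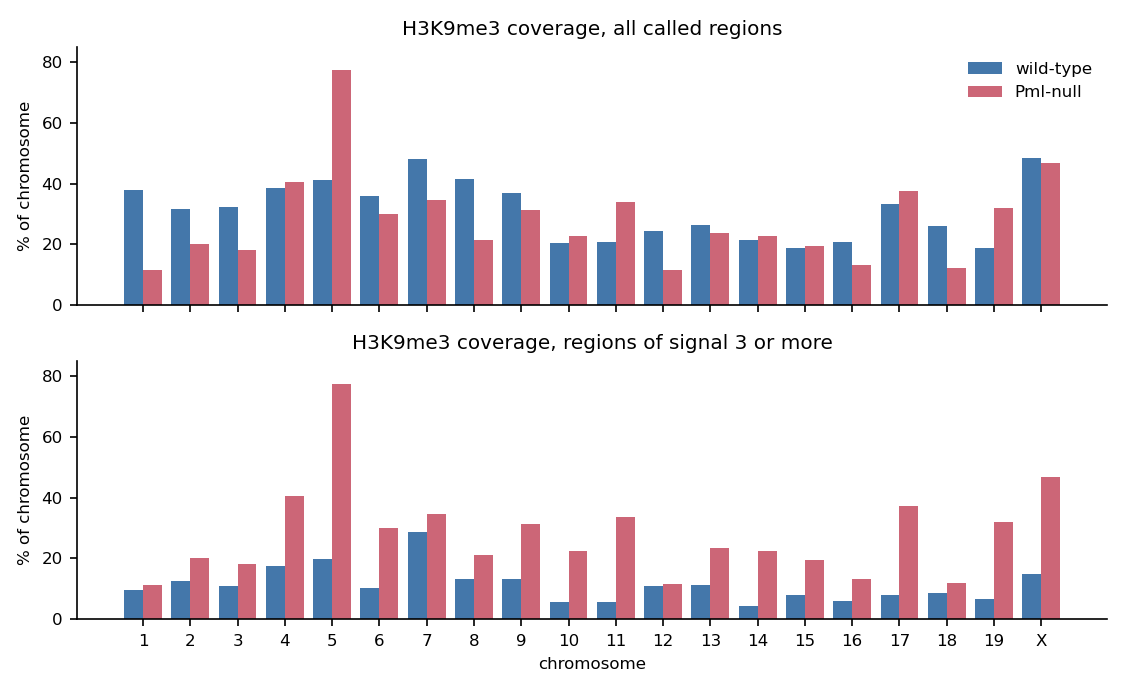
Percentage of each chromosome covered by H3K9me3 regions in the wild-type and Pml-null libraries, for all called regions (top) and for regions of signal 3 or more (bottom). Chromosome 5 reaches 77.4% in the Pml-null library and chromosome 1 has the lowest share there, 11.4%.

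Of 21627 protein-coding genes, 4127 (19.1%) had at least 0.5 of the gene body in WT calls and 5470 (25.3%) in KO calls, with 2388 in both. At a signal of 3 or more the counts were 1800 (8.32%) in WT and 5463 (25.3%) in KO, with 1110 in both. A stricter loss needed at least 0.5 of the body in WT regions of signal 3 or more and no base in any KO call, and 586 genes (2.71%) met it. The mirror image, a strict gain, was met by 2178 genes (10.1%). Lost genes were short, with a median of 1.78 kb against 17.3 kb for all genes, and 234 of them lay on chromosome 7. Gained genes had a median of 13 kb, and chromosome 5 held more of them than any other chromosome. WT PML calls held at least 0.5 of 72.7% of the lost genes, 4.82% of the gained genes and 12.2% of all genes.

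Zinc finger genes, many of them in KRAB clusters, were called to a like extent in both libraries. Of 400 Zfp genes, 205 were covered in WT (51.25%, against 19.1% of all genes), 182 in KO (45.5%, against 25.3%) and 151 in both. At a signal of 3 or more the counts were 171, 182 and 132. Strict losses numbered 14 (3.50%), strict gains 11 (2.75%), and 74 had at least 0.9 of the body in regions of signal 3 or more in both. Zfp382 (gene 233060, chr7:30121833-30140758) had a signal of 38 in WT and 43.2 in KO. Zfp809, which represses retroviral DNA, had signals of 16.9 and 19.6, and Zfp445, which acts at imprinted loci, had 8.27 and 13.6. On chromosome 4 the median signal of the Zfp genes was 22.4 in WT and 10.2 in KO, the reverse of the order over all regions, and 20 of 27 genes were covered in both.

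Of 52 imprinted genes, 12 were covered in WT (23.1%), 16 in KO (30.8%) and 10 in both, near the shares of all genes (19.1% and 25.3%). At a signal of 3 or more the counts were 7, 16 and 6. Nnat, expressed from the paternal copy, had signals of 20.6 and 40.2, Mest 12.7 and 28.1, Zrsr1 8.12 and 18.7, and Nap1l5 5.62 and 16.7 in WT and KO. Igf2, a growth factor, and Peg10, a gene derived from a retrotransposon, had no base called in WT and 100% in KO, with signals of 5.73 and 6.96. The numbered tables listed Igf2 RNA at 0.183 FPKM for WT and 35.1 for KO, and the unnumbered ones at 390.4 and 372.3.

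Olfactory receptor genes, single-exon genes silent outside the nose, were called widely in WT and little in KO. Of 1110, 675 were covered in WT (60.8%, against 19.1% of all genes) and 201 in KO (18.1%, against 25.3%), with 133 in both. At a signal of 3 or more the counts were 199 in WT (17.9%, against 8.32% of all genes) and 200 in KO, with 51 in both. The difference in number thus lay in WT regions of low signal, and the strong calls fell on largely different genes. Over all genes at this minimum, 1800 were covered in WT and 5463 in KO, with 1110 in both. The part of the WT genes shared with KO was thus smaller for olfactory receptors than over all genes. The part of the KO genes shared with WT was not smaller. On chromosome 2, 182 of 287 were covered in WT and 9 in KO, and on chromosome 9, 83 of 130 against 3. On chromosome 11 the order was reversed, with 27 of 83 in WT and 48 in KO, and on chromosome 15 all 9 were covered in KO and none in WT.

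Vomeronasal receptors detect pheromones, and the V1R group differed also among strong calls. Of 231 V1R genes, 178 were covered in WT (77.1%, against 19.1% of all genes) and 60 in KO (26.0%, near the 25.3% of all genes). At a signal of 3 or more 125 (54.1%, against 8.32%) and 60 were covered. Strict losses numbered 98 (42.4%), of which 89 lay on chromosome 7, where a WT region of 3981 kb (chr7:19968001-23949000, signal 4.86) was covered by KO calls over 18.4% of its length. Of 124 V2R genes, 74 were covered in WT (59.7%) and 26 in KO (21.0%), with 12 strict losses. At a signal of 3 or more the V2R counts were 34 (27.4%) and 26.

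Other tandem families called in WT were picked after their values were seen. Of 47 Pramel genes, 45 were covered in WT (95.7%, against 19.1% of all genes) and 12 in KO (25.5%, near the 25.3% of all genes). The 34 strict losses (72.3%, against 2.71% of all genes) lay on chromosomes 4 and 5. Pramel38, Pramel35 and Pramel33, each with a WT signal of 10.2 over 100% of the body, had no KO base although 90.4% of the WT length on chromosome 5 was called in KO. A signal belongs to a region, and 10.2 was also the median of the 18 Pramel genes on chromosome 5. Neighbours with the same signal are not separate observations. Of 40 secretoglobin genes, 35 were covered in WT (87.5%) and 20 in KO (50%), and of 35 bitter taste receptors, 16 (45.7%) and 2 (5.71%). Nlrp14, an oocyte gene (gene 76858, chr7:107113455-107198103), was covered fully in WT, at a signal of 3.14, just over the minimum, and had 0 KO bases.

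Of 57 clustered protocadherin genes on chromosome 18, which give neurons their surface identity, 53 were covered in WT (93.0%) and 30 in KO (52.6%). The shares of all genes were 19.1% and 25.3%. All 30 were covered in both, and 9 strict losses lay in the Pcdhb group. Pcdhb3 lay in a WT region of 575 kb with a signal of 14.6, 69.9% of which was called in KO. All 11 Skint genes, known from thymus and skin, were covered in WT, at signals below 3, and 1 in KO. Some members of such families are close copies and genes of the Ugt1a locus share exons, so their separate values are uncertain. How reads that fit several copies were counted is not given in the sources used here.

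Of the 12 strict losses with the most covered bases, 3 lay together on chromosome 1. Gm7592, Gm38510 and Sp140, a nuclear body protein of immune cells, shared 1 WT region of 778 kb (chr1:84891001-85669000) with a signal of 36.9, of which 3.34% was called in KO. This region was singled out after its values were seen. Total H3 was called over 85.9% of it in WT and over 0% in KO, and H3.3-HA over 52.4% and 0%. The absence of H3 calls there moved with the absence of H3K9me3 calls, and its part in the difference was not tested. Whether both cultures carry this stretch in the same number of copies was not tested either, so the signal of 36.9 and the missing KO calls may not compare like with like.

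Among the 12 strict gains with the most covered bases were Cacna1d, a calcium channel (gene 12289, chr14:30039941-30491156, 96.9% covered in KO, signal 7.41), Rbfox3, a splicing factor of mature neurons (gene 52897, chr11:118489760-118911597, 100%, signal 10.0), Dscaml1, an adhesion gene (100%, 7.70), and Kcnq3, a potassium channel (100%, 4.6). H3K27me3 was called in WT over 97.3%, 100%, 100% and 87.7% of these bodies. All 4 had at most 0.133 FPKM in all tables. The others were Ankfn1, Atp2b2, Ano2, Itga9, Dpf3, Spon1, Nhsl2 and Mad1l1. Mad1l1, a spindle checkpoint gene on chromosome 5, had the highest signal of the 12, 16.6, no H3K27me3 call, and RNA of 30.7 FPKM in WT and 18 in KO (numbered tables) or 10.4 and 10.5 (unnumbered).

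Of 39 Hox genes, which pattern the body axis and are classic Polycomb targets, 11 were covered in WT (28.2%) and 23 in KO (59.0%). The shares of all genes were 19.1% and 25.3%. At a signal of 3 or more 2 (5.13%, against 8.32% of all genes) and 23 were covered. The HoxC cluster accounted for 9 of the 14 strict gains, all inside 1 KO region of 391 kb (chr15:102753001-103144000, signal 7.88) of which 1.02% was called in WT. H3K27me3 covered 100% of that region in both genotypes, and total H3 80.3% in both. Hoxb7 was the 1 strict loss (87.7% of the body, signal 5.86). Of 109 keratin and keratin-associated genes, 24 were covered in WT and 52 in KO, and at a signal of 3 or more 0 and 52, with 40 strict gains in the clusters of chromosomes 7, 11 and 15. Of 94 potassium channel genes, a list picked after values were seen, 18 were covered in WT (19.1%, the share of all genes) and 51 in KO (54.3%). The 23 strict gains (24.5%, against 10.1% of all genes) lay on 11 chromosomes. With all calls the keratin-associated genes of chromosome 16 went the other way, with 16 of 24 covered in WT and 4 in KO. At a signal of 3 or more, 0 of them were covered in WT. Of 55 adhesion genes of neurons, 12 were covered in WT (21.8%, near the 19.1% of all genes) and 6 in KO (10.9%, against 25.3%). At a signal of 3 or more 3 (5.45%, against 8.32%) and 6 were covered. Csmd1, the member with the most bases called in WT alone, was covered over 91.5% in WT, at a signal of 1.38, and 2.74% in KO. All but 4 of the 33 Rhox homeobox genes on X were covered in KO (87.9%, against 25.3% of all genes). In WT 14 were (42.4%, against 19.1%), and 16 were strict gains (48.5%, against 10.1%). At a signal of 3 or more 29 were covered in KO and 0 in WT. KO calls covered 46.7% of X as a whole. Of 50 collagen and matrix genes, 3 were covered in WT (6%, against 19.1% of all genes) and 12 in KO (24%, near the 25.3% of all genes).

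**Figure D4:**
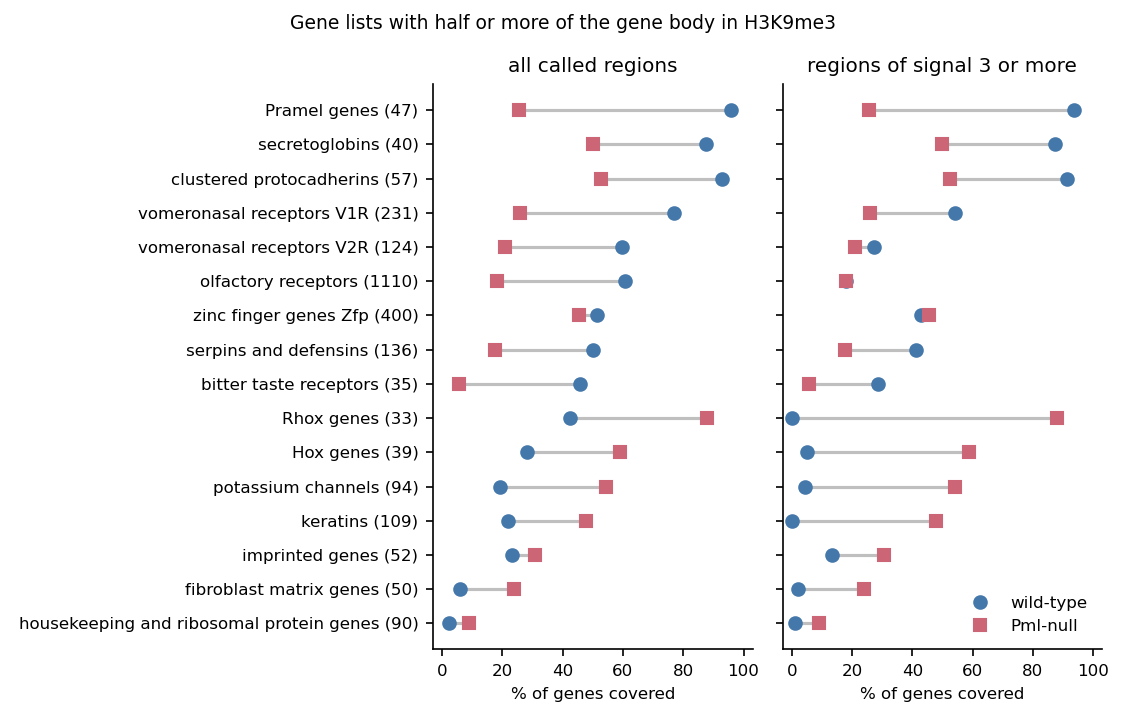
Percentage of the genes of each list with at least 0.5 of the gene body in H3K9me3 regions, in the wild-type (circles) and Pml-null (squares) libraries, for all called regions (left) and for regions of signal 3 or more (right); list sizes are in brackets. Olfactory receptors differ with all calls (675 against 201 genes) and not in number at a signal of 3 or more (199 against 200), while Pramel genes differ in both panels.

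Housekeeping and ribosomal protein genes were seldom covered. Of 90, 2 were covered in WT (2.22%, against 19.1% of all genes) and 8 in KO (8.89%, against 25.3%), 3 of these 8 on chromosome 5 and 3 on X. Actb (gene 11461, chr5:142903115-142907976) was covered fully in KO, with a signal of 7.24, and had 0 bases in WT. The numbered tables listed its RNA at 3799 FPKM for WT and 3741 for KO, and the unnumbered ones at 3914 and 5787. Rps6, whose promoter is printed above, had a KO signal of 9.92 and RNA of 644.9 and 830.0, or 707.3 and 541.5. Igfbp7 had a KO signal of 10.5 and RNA of 548.7 and 511.0, or 384.1 and 784.7. These 3 were not typical of the numbered pair. Of the 12 strict gains with the most RNA in WT, picked after values were seen, 7 were at least 2-fold lower in KO in the numbered tables, 0 were lower and 1 (Igfbp7) was higher in the unnumbered ones. The 7 were Rps4x, Rpl36a, Rpl21, Serpinf1, Pcolce, Atp5k and Cox6a1. Atp5k, a subunit of ATP synthase, had 4145 FPKM for WT and 182.3 for KO in the numbered tables, and 497.0 and 526.3 in the unnumbered ones. The unnumbered pair thus did not show the lower levels of the numbered pair. Since the genes were picked for a high level in WT, no direction is read from these counts.

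The 10 strict losses with the most RNA in WT, picked the same way, included 1 gene at least 2-fold higher in KO and 2 lower in the numbered tables, and 0 of either in the unnumbered ones. Irf2bp2 was the higher one (14.0 and 29.7 FPKM) and Zfp637 (140.0 and 13.9) and Olfml2b (58.3 and 17.5) were the lower ones. In the unnumbered tables Zfp637 had 31.3 and 26.3. Eif3e, a translation initiation subunit, was covered over 84.8% in WT with a signal of 7.42 and had 267.3 and 264.6 FPKM, or 236.6 and 230.2.

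Gene RNA was compared as KO minus WT of log2(FPKM + 1), for genes of at least 1 FPKM in either genotype, a scale that understates the change of low genes. In the numbered pair, 653 of 10094 genes (6.47%) were at least 2-fold higher in KO and 1541 (15.3%) at least 2-fold lower. In the unnumbered tables these were 155 (1.47%) and 374 (3.54%) of 10568. Of the strict losses 42 were measured above the minimum in the numbered tables, 6 higher (14.3%) and 7 lower (16.7%), and of 45 in the unnumbered pair, 0 were higher and 1 (2.22%) was lower. The median difference of strict losses was 0.02 and -0.06 and that of all genes 0.06 and 0.01. Of the strict gains 670 were measured in the numbered tables, 56 higher (8.36%) and 129 lower (19.3%), with a median of -0.01. In the unnumbered pair, 11 (1.52%) were higher and 34 (4.70%) lower of 723, with a median of 0.01. In the numbered pair the share of lower genes among strict losses (7 genes) and of higher genes among strict gains lay near that of all genes. Strict losses had 14.3% higher (6 genes) and 16.7% lower, strict gains 8.36% and 19.3%, and all genes 6.47% and 15.3%. In the unnumbered pair strict losses had smaller shares than all genes in both directions, 0% and 2.22% against 1.47% and 3.54%. None of these differences was tested.

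What set the classes apart was how many genes had RNA at all. In the numbered pair, 13.2% of the measured genes covered in WT but not KO had at least 1 FPKM, 17.7% of those covered in both, 40.0% of those covered in KO but not WT and 67.6% of those covered in neither. The unnumbered tables gave 14.9%, 22.3%, 42.9% and 69.8%.

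RNA of the enzymes themselves was given in both pairs. Of 16 writers and readers of H3K9 methylation, 2 differed by at least 2-fold in the numbered tables. Setdb1 was 6.35 FPKM in WT and 16.1 in KO, and Suv39h2 was 2.95 and 7.14. In the unnumbered tables none of the 16 differed by 2-fold, with Setdb1 at 13 and 11.7 and Suv39h2 at 1.58 and 1.29. On the log2(FPKM + 1) scale none of 8 measured demethylases differed by 2-fold in either pair. Kdm4c fell just short by the numbered tables, with a difference of 0.926. Its raw FPKM there, 3.41 for WT against 7.37 for KO, differed by more than 2-fold. The unnumbered tables gave 10.6 and 9.35. Its body lay to 13.4% in WT calls and to 55.9% in KO calls. Setdb1 was covered over 74.8% in WT, by a region of 96 kb with a signal of 2.47, and over 0% in KO. Kdm4a lay fully in a KO call of 272 kb (signal 5.74) and Suv39h1 in one of 1623 kb (signal 7.78), and Kdm4a RNA was 9.09 and 16.8 FPKM, or 29.1 and 27.8.

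Other marks separated the bases called in WT alone (lost, 384.3 Mb), in both (kept, 456.3 Mb) and in KO alone (gained, 278.8 Mb). WT H3K27me3 calls covered 30.2% of lost, 64.5% of kept and 68.7% of gained bases, against 37.4% of all space. KO H3K27me3 calls covered 39.7%, 79.9% and 69.0%, against 39.6%. Gained bases therefore carried H3K27me3 to a like extent in both genotypes, and kept bases more in KO. WT PML calls covered 41.8%, 43.8% and 9.94%, against 20.0%. With both lists held to a signal of 3 or more, gained bases had 23.1% in PML calls. Of those bases, however, 48.7% lay in WT calls of lower signal. Bases in KO regions of signal 3 or more and in no WT call had 9.90%. Lost bases with a WT signal of 3 or more (114.8 Mb) had 34.0% in PML calls and those of lower signal (269.5 Mb) 45.1%. Gene density was 5.35 genes per Mb on lost, 5.88 on kept and 10.7 on gained bases, against 8.36.

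Total H3 calls were much denser on kept and gained bases than on lost ones. In WT they covered 5.94% of lost, 39.5% of kept and 39.9% of gained bases, against 16.9% of all space, and in KO 4.36%, 36.9% and 48.9%, against 20.2%. H3.3-HA in KO covered 6.85%, 23.5% and 22.5%, against 14.6%, and in WT 0.788%, 0.923% and 2.23%, against 2.86%. H3.3-Flag was sparse on kept bases, at 2.17% in WT and 2.88% in KO against 11.1% and 11.9%. Outside all bases called for H3 in either genotype, gained bases came to 122.6 Mb of the 278.8 Mb and lost bases to 353.9 Mb of the 384.3 Mb. With H3 bases left out the KO to WT ratio was 0.612 in place of 0.875 with all calls and 1.83 in place of 2.39 at a signal of 3 or more. The part of H3 calling in the gains was not tested.

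**Figure D5:**
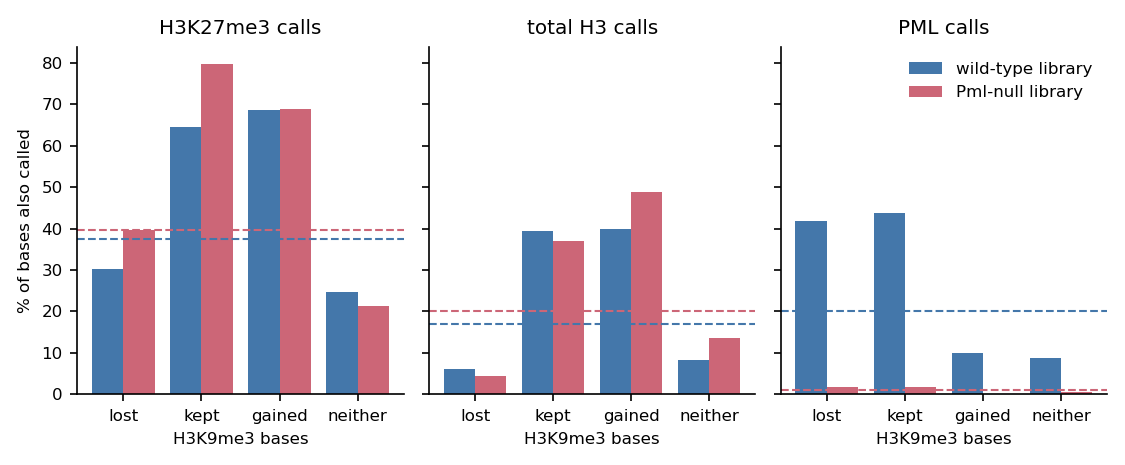
Percentage of H3K9me3 bases that also lay in H3K27me3 (left), total H3 (middle) and PML (right) calls, for bases called for H3K9me3 in wild-type alone (lost), in both (kept), in Pml-null alone (gained) and in neither; bar colours give the library of the other mark and dashed lines its share of all space analysed. Gained bases reach 68.7% in wild-type H3K27me3 and 9.94% in wild-type PML, and lost bases 30.2% and 41.8%, all with no signal minimum. With both lists held to a signal of 3 or more, gained bases have 23.1% in PML, and 48.7% of those bases lie in wild-type calls of lower signal.

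The fibroblast label was checked in the RNA tables. All 10 fibroblast markers were above 0 in all 4 tables, with summed FPKM between 4851 and 11774. Thy1 was near 0 in the numbered tables (0.141 in WT and 0.100 in KO) and at 209.8 and 120.3 in the unnumbered ones. In each pair 4 of the 10 markers differed by at least 2-fold between genotypes. The 9 measured macrophage markers added up to 1.25 FPKM (WT) and 0.978 (KO) by the numbered tables, with Tyrobp, C1qa, C1qb and C1qc at 0 in both, and 184.5 in WT and 12 in KO in the unnumbered ones. Lyz2 made up 90.2 of the 184.5. Epithelial and endothelial markers summed to at most 2.77. The 5 neuronal markers summed to between 19.1 and 45.6, nearly all from Tubb3 (17.3 to 23.2) and Map2 (1.49 to 24.9), and Snap25 was at 0 in all tables. The part of macrophage RNA in the unnumbered differences was not tested.

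Calls outside the analysed space differed too. On Y, WT had 2 regions of 90.8 Mb in all with signals of 1.94 and 2.13, and KO had 87 regions of 0.801 Mb in all with a median signal of 16.7. In the first 3 Mb of the chromosomes WT had 10 regions of 30 Mb in all, on chromosomes 1 to 9 and X, with signals from 0.0391 to 1.71, and KO had none. Whether reads can be placed in these stretches was not checked, so no difference between genotypes is read from these calls. The 10 regions count among the 20730 of WT.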

How the data were processed

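The series holds 12 ChIP and 8 RNA samples of MEFs, and the results rest on the 2 H3K9me3 lists, with the other lists and the RNA tables set beside them. The authors deposited each ChIP list as regions with a signal and a score. The signal was used as deposited and the score was not. No source used here gives the region caller or the meaning of either value. The submitters' processing notes name the build mm10 and, with no role given, Cuffdiff 2.2.1, Cufflinks 2.2.1, Bowtie 1.0.0 and TopHat2 2.0.8b. The authors deposited FPKM values per gene, 1 pooled table per genotype for 3 numbered replicates and 1 table per genotype for unnumbered samples. Lines naming several genes (267 or 271 per table) were left out. The depth of the ChIP libraries is unknown, so no precision could be set on a covered length.

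Regions were laid on 1 kb bins. Lengths were counted from base 3000000 of the autosomes and X. A gene was covered when at least 0.5 of its body lay in regions, with gene models from RefSeq GRCm38.p6. Intervals are Wilson 95%. RNA differences used a pseudocount of 1 and a minimum of 1 FPKM in either genotype. No test was made, since each genotype had 1 library. Computations used Python 3.11.15, numpy 2.4.6, pandas 2.3.3 and scipy 1.17.1, and figures matplotlib 3.10.9, with the overlap counts tested on simulated regions.

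Named genes were the 12 strict losses and 12 strict gains with the most covered bases, the 8 kept genes with the highest lower signal, and members of the lists. Named regions were the 3 longest and the 3 of highest signal called in WT alone, in KO alone and in both. The members and lists were chosen with earlier results of these data known. Genes said to be picked after values were seen fall outside this rule. Alternatives covered the signal minimum, chromosomes, region length, H3 bases, overlap, gene share and RNA settings.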

Additional observations from a re-analysis of the deposited data

Results flagged for a closer look

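The RNA medians of genes that had H3K9me3 calls in WT had opposite signs in the 2 pairs of tables. Genes covered in WT but not in KO had a median KO minus WT difference of 0.13 on the log2(FPKM + 1) scale in the numbered tables (180 genes) and of -0.067 in the unnumbered ones (203 genes). Genes covered in both had 0.13 (316 genes) and -0.067 (399 genes). The difference between the pairs was not tested. Over all genes the medians were 0.06 and 0.01.

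On Y, which was left out of the comparison, KO had 87 H3K9me3 regions and WT had 2. The WT regions were long and of low signal, 90.8 Mb in all, and the KO regions came to 0.801 Mb.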

How the results depend on the processing

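The KO to WT ratio of covered length was below 1 with all calls (0.875), on either set of chromosomes, without chromosome 5, with longer regions and without H3 bases (0.612), and was reversed by every signal minimum tried. It was 1.17 at a minimum of 1, 2.39 at 3 and 3.78 at 5. With a minimum of 3 it was 2.19 on chromosomes 1 to 9 and X, 2.99 on chromosomes 10 to 19, 1.83 without H3 bases and 2.23 without chromosome 5, alternatives chosen after seeing the data. The cause was not tested. Shares of WT and KO length called in the other genotype were 56.9% and 48.5% at a minimum of 1, 62.3% and 26.0% at 3, 62.8% and 16.6% at 5, 53.9% and 64.7% on chromosomes 1 to 9 and X, 55.2% and 56.5% on 10 to 19, 51.4% and 64.7% without chromosome 5, 54.5% and 61.8% for regions of at least 5 kb, 54.8% and 60.5% for at least 10 kb, 40.7% and 66.5% without H3 bases, and 38.4% and 38.2% for the 300 Mb of highest signal. With the first 3 Mb kept the WT share was 52.4%. At a minimum of 3 these shares were 62.1% and 28.4% on chromosomes 1 to 9 and X, 62.7% and 21.0% on 10 to 19, 47.5% and 25.9% without H3 bases, and 59.5% and 26.7% without chromosome 5. Region numbers in WT and KO were 13330 and 7021 on chromosomes 1 to 9 and X and 7400 and 3727 on 10 to 19, and at a minimum of 3 they were 7813 and 7016, and 4262 and 3708. WT regions numbered 12075 at a minimum of 3, 8566 at 5, 12824 at 10 kb or more and 11321 at a minimum of 3 without chromosome 5. Touched shares of WT and KO regions were 38.7% and 71.7% when at least 0.5 of the region had to be covered, and 44.7% and 47.1% at a minimum of 3. At that minimum 1800 genes were covered in WT and 1110 in both. Without an FPKM minimum the numbered RNA medians of genes lost and of genes covered in both were 0. With H3K9me3 regions of signal 3 or more, lost bases had 33.8% in PML, 39.1% in KO H3K27me3, 7.08% and 5.19% in WT and KO H3, 5.84% and 6.77% in H3.3-Flag, and 1.91% and 9.93% in H3.3-HA. Kept bases had 53.5% in PML, 53.6% and 76.2% in H3K27me3, 42.9% and 42.0% in H3, 2.86% and 3.78% in H3.3-Flag, and 1.41% and 30.2% in H3.3-HA. Gained bases had 23.1% in PML, 70.6% and 75.8% in H3K27me3, 38.5% and 41.4% in H3, 4.71% and 5.64% in H3.3-Flag, and 1.35% and 20.6% in H3.3-HA. Of these gained bases, 48.7% lay in WT calls of lower signal. No paired analysis was possible because each genotype had 1 H3K9me3 library, and no replicate could be left out. Base composition of the regions was not analysed here, and the unknown depth limits every comparison of signal.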
